A study of Mus musculus with 12 samples.

Results

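The genes described here build and drive the contractile machinery of skeletal muscle. In the urogenital sinus of a late fetal mouse they serve as markers of the striated muscle around the urethra. They were chosen as a list of 37 symbols, matched exactly to the gene names, and all 37 were found among the 56495 genes of the table. Total RNA came from urogenital sinus at stage E18.5, dissected free of the bladder, with the proximal urethra left on it and, in females, the vagina. There were 3 libraries each of mutant males, wild type males, mutant females and wild type females. The mutants carried the genotype Inv(Itga6-nsi)d11lac, the name of an inversion between Itga6 on chromosome 2 and a point called nsi, on an allele called d11lac. The labels gave no further detail on that allele, the copy number of the inversion or the strain, and did not state which embryos the replicates were taken from. The p-values therefore cover only the variation among these 12 libraries. Of the 37 genes, Neb, Klhl41, Ttn, Xirp2 and Tnnc2 lie on chromosome 2, as Itga6 does.

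Skeletal muscle fibres contract when calcium released inside the cell binds troponin on the thin filament and lets myosin of the thick filament pull on actin. Fast and slow fibres use different troponin and myosin genes, and fetal fibres also use embryonic and neonatal myosins that are later replaced by adult ones. The striated muscle of the urethra closes the outlet of the bladder.

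Of 13 myogenic regulators 11 passed the filter of 1 FPKM in at least 3 libraries, while the muscle progenitor genes Pax3 and Pax7 stayed at 0.0149 to 0.182 and 0.335 to 0.903 scaled FPKM. Myog, the transcription factor of differentiating skeletal muscle cells, was at 22.8 to 38.5 scaled FPKM in the 3 mutant male libraries, 24.6 to 43.0 in wild type males, 29.7 to 38.1 in mutant females and 28.9 to 36.2 in wild type females. FPKM correct fragment numbers for gene length and sequencing depth, and were divided here by 1 factor per library. The 6 heart muscle genes summed to 2.71 to 4.74 scaled FPKM in mutant males, 2.92 to 5.43 in wild type males, 0.943 to 5.87 in mutant females and 3.09 to 5.19 in wild type females. The atrial myosin Myh6 was the 1 of the 6 that passed the filter. Nppa and Nkx2-5, named after their values were seen, were at 0 to 0.0529 scaled FPKM. Myl2, another of the 6, was at 2.67 in wild type male 1 and 0.0741 to 0.771 in the other libraries. It is also on the list of further striated muscle genes described below, so the lists share it. Of the 37 genes, 31 reached 1 FPKM in all 12 libraries and 34 passed the filter of 1 FPKM in at least 3 libraries. None of the 34 did so through a single group. The other 3 were Myh2 and Mybpc2, of fast fibres, and Xirp2, an actin-binding gene, which lay at 0 to 0.96, 0.174 to 0.855 and 0.0116 to 0.646 scaled FPKM.

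Relative sequencing depth was 0.651 to 0.717 in mutant males, 0.835 to 0.883 in wild type males, 0.582 to 0.624 in mutant females and 0.812 to 1 in wild type females, so genotype and depth cannot be told apart. Rn7sk, a small nuclear RNA, took 12.2% to 14.9% of the FPKM sum in mutant males 1 and 3 and wild type male 1, while 9 libraries had it listed at 0. The 7 blood genes summed to 4203 to 11767 scaled FPKM in mutant males, against 700, 961 and 7213 in wild type males 1, 2 and 3. The 8 pelvic neuron genes summed to 62.1 in mutant female 3 and to 224 to 415 in the other 11 libraries.

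The promoters below are those of Ckm, Mybpc1 and Myh8, which fell in mutant males, and of Myh3 and Tnnc1, which did not pass the test and are shown for comparison. Each sequence is the 250 bases before the start of the gene on its own strand, from RefSeq in build GRCm38.p6, and capitals mark CANNTG, the E-box core that myogenic factors can bind. RefSeq promoters were matched by symbol for 30 of the 37 genes, which gave 33 promoters. They lie at chr7:19410844-19411093 on the plus strand for Ckm, chr10:88605153-88605402 on the minus strand for Mybpc1, chr11:67276874-67277123 on the plus strand for Myh8, chr11:67078050-67078299 on the plus strand for Myh3 and chr14:31208062-31208311 on the plus strand for Tnnc1.
Ckm: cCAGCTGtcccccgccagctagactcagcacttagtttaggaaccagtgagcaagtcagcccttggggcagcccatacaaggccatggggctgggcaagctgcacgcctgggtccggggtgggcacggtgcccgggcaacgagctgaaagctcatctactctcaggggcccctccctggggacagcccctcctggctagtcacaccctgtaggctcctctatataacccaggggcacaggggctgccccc
Mybpc1: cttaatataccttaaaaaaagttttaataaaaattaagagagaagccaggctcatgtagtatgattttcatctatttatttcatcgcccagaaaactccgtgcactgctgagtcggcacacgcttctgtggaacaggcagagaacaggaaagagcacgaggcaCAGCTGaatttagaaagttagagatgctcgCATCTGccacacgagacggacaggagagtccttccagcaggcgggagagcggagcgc
Myh8: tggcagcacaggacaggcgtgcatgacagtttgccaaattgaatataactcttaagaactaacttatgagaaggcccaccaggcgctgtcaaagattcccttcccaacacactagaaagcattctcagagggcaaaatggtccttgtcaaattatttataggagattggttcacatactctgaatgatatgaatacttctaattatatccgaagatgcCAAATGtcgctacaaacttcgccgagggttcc
Myh3: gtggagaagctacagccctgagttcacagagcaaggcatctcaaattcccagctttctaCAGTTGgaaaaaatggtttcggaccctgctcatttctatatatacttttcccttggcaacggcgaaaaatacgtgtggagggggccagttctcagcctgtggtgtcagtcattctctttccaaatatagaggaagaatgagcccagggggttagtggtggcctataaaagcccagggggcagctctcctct
Tnnc1: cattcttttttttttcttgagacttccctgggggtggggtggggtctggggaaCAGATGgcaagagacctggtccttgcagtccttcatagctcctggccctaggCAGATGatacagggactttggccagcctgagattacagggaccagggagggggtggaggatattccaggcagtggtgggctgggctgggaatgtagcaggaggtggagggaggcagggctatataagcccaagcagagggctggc

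Ckm and Mybpc1 each held the E-box form CAGCTG once, and Myh8, Myh3 and Tnnc1 held only other forms of CANNTG. Among promoters not shown, it stood in those of Acta1, Atp2a1, Cav3, Klhl41, Myl1 and Mylpf, which were called lower in mutant males. It also stood in those of Tnni1, Pygm, Cacna1s and Casq1, which did not pass there. Eno3 and Tnnc2 fell in mutant males and lacked it. On either strand, CAGCTG stood in 13 of the 33 promoters of these genes (39.4%) and in 13% of all 32851 promoters of that length. CANNTG, which contains CAGCTG, stood in 27 of 33 (81.8%) and in 66.2% of all. The motif named MEF2, for the factor that acts with the myogenic factors, stood in 5 of 33 (15.2%), Myh8 among them, and in 2.92% of all. The CArG box of serum response factor stood in 4 of 33 (12.1%) and in 1.47% of all, and TATAAA in 7 of 33 (21.2%) and 12.4% of all. Promoters of 1 gene with 2 starts overlap, and a match describes the letters of the window only.

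In males, mutants had lower levels of many of these genes, and the fall was deepest for the muscle creatine kinase Ckm, the Z disc gene Myoz1 and the fast troponins. Of the 34 tested genes 14 fell and 0 rose, with a median log2 difference of -0.50 on the log2(scaled FPKM + 0.5) scale, where the median of all 13904 genes was -0.0006. Among all genes 20.3% passed the same test, 11.6% lower and 8.64% higher (limma with Benjamini-Hochberg adjustment, adjusted p under 0.05). All 3 mutant males lay below all 3 wild type males for 16 of the 34, and for 22.4% of all genes tested, while 0 of the 34 and 21.1% of all genes lay apart in the other direction. Without the 3 libraries rich in Rn7sk, which leaves 1 mutant male assumed to vary like the other groups, the calls in males numbered 62 over all genes and 0 of 33 here. The log2 differences of the 14 genes were then -2.07 for Ckm to -0.39 for Mylpf (limma adjusted p = 0.077 to 0.371), and Mylpf and Atp2a1, at -0.39 and -0.44, shrank by more than 1.5 times. Fewer muscle cells and less RNA per cell cannot be told apart in such bulk samples. In females 1 of 34 fell and 0 rose at a median of -0.14, against 28% of all genes called, 15.9% lower and 12.1% higher. After a correction for GC content and length the median was -0.28 in females and -0.59 in males, and 31 and 32 of the 34 were negative. Mutant females lay below wild type females in all libraries for 4 of the 34 and 22.2% of all genes, and above them for 0 of the 34 and 20.4% of all genes. Over both sexes 15 of 34 fell and 0 rose at a median of -0.34, against 40.6% of all genes called, 21.6% lower and 18.9% higher. The differences between groups are drawn gene by gene in the plot of log2 differences by sarcomere part.

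**Figure D1:**
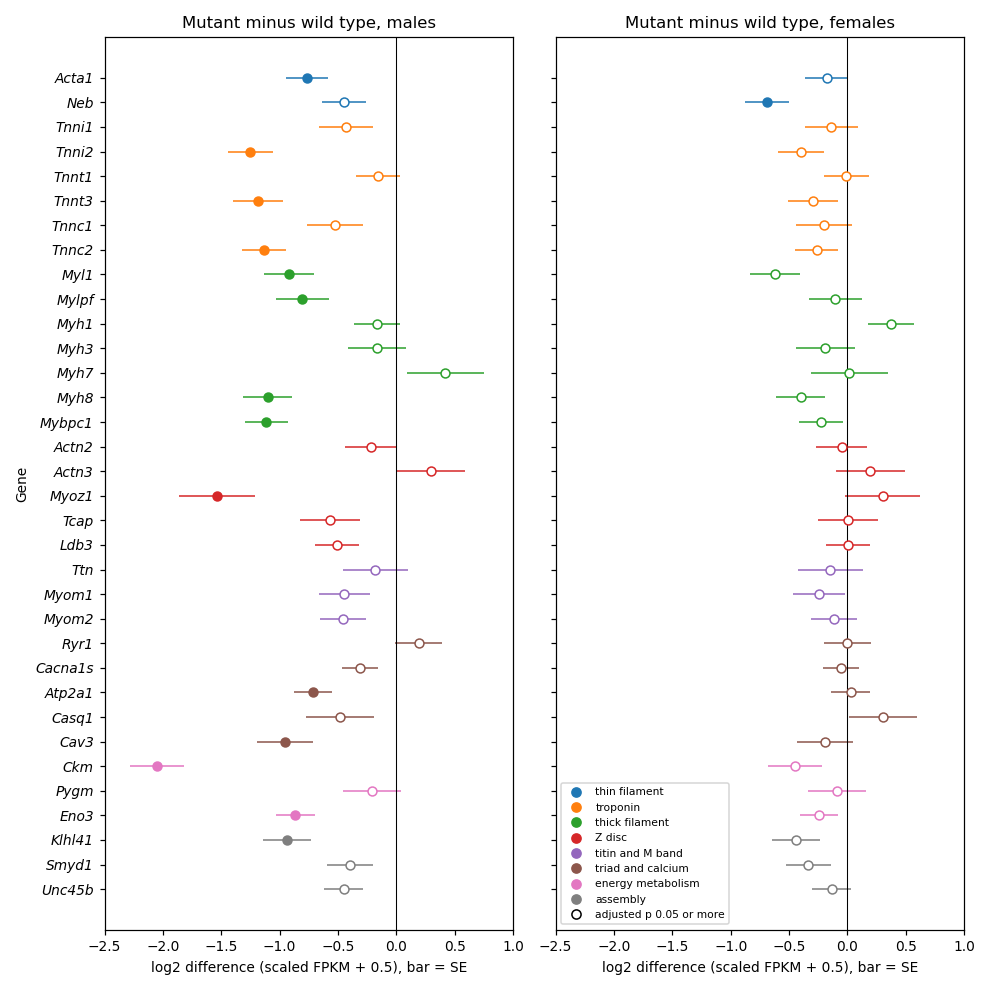
Log2 difference of mutant minus wild type libraries for the 34 tested genes, in males (left) and females (right), on the log2(scaled FPKM + 0.5) scale, with bars for the standard error from limma. Filled points passed the test, 14 in males and 1 in females, and Ckm lies farthest to the left in males at -2.05.

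The 6 troponin genes form 3 pairs, in which the fast gene fell in mutant males and its slow partner did not pass. Tnni2, the inhibitory subunit of fast fibres (ENSMUSG00000031097, chromosome 7, 141995545 to 141998147 in mm39), was at 23.7, 30.6 and 17.3 scaled FPKM in mutant males, against 52.2, 64.8 and 51.9 in wild type males. The groups did not overlap. The log2 difference was -1.25 (SE 0.19, limma adjusted p = 0.00333). Tnnt3, the fast subunit that ties troponin to tropomyosin (ENSMUSG00000061723, chromosome 7, 142052573 to 142069745), was at 35.5, 42.2 and 26.2 in mutant males, against 64.6, 97.9 and 75.2 in wild type males. Every mutant male was again below every wild type male (-1.19, SE 0.22, limma adjusted p = 0.00547). Tnnc2, the calcium-binding subunit of fast fibres (ENSMUSG00000017300, chromosome 2, 164619081 to 164621661), was at 42.9, 60.3 and 35.6 in mutant males, against 86.2, 117 and 98.2 in wild type males (-1.13, SE 0.19, limma adjusted p = 0.00396).

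The slow partners overlapped between the same libraries. Tnni1 was at 52.8, 85.8 and 45.9 scaled FPKM in mutant males, against 59.8, 81.8 and 104.7 in wild type males, a log2 difference of -0.43 (SE 0.23, limma adjusted p = 0.207). Tnnt1 was at 59.5, 88.5 and 57.5, against 60.5, 73.3 and 94.6 in wild type males (-0.16, SE 0.19, limma adjusted p = 0.603). Tnnc1 was at 43.0, 68.8 and 34.4, against 50.1, 67.3 and 91.2 in wild type males (-0.53, SE 0.24, limma adjusted p = 0.149). These misses leave room for a fall, since the standard errors are 0.19 to 0.24. In females 0 of the 6 troponins passed, against 28% of all genes. Tnni2 was at 21.9, 24.9 and 19.2 in mutant females, against 35.0, 24.5 and 28.3 in wild type females, and the groups overlapped (-0.40, SE 0.19, limma adjusted p = 0.146).

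**Figure D2:**
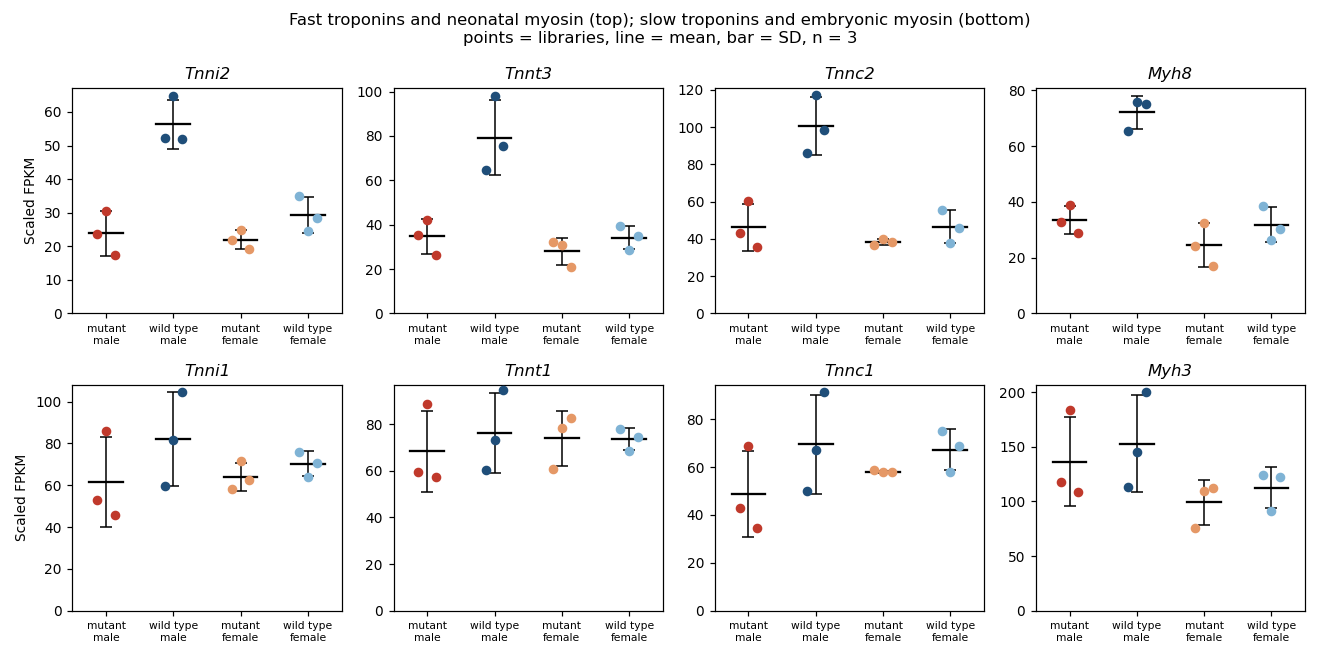
Scaled FPKM of the 3 fast troponin genes and the neonatal myosin Myh8 (top) and of their slow or embryonic partners (bottom), by group on the x axis. Points are libraries, lines means and bars SD (n = 3). Wild type males stand above the other groups in the top row, at 65.4 to 75.7 for Myh8, and the groups overlap in the bottom row.

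The ratio of fast to slow partner sets 2 muscle genes against each other within a library, and it lay lower in mutant males for all 3 pairs. The ratio of Tnni2 to Tnni1 FPKM was 0.448, 0.356 and 0.377 in mutant males, against 0.872, 0.792 and 0.496 in wild type males. The ratio of Tnnt3 to Tnnt1 was 0.597, 0.477 and 0.456, against 1.07, 1.34 and 0.795 in wild type males. That of Tnnc2 to Tnnc1 was 0.997, 0.876 and 1.03, against 1.72, 1.74 and 1.08 in wild type males. No mutant male overlapped a wild type male for any of the 3 pairs, by a narrow margin for Tnnc2 to Tnnc1 (1.03 against 1.08). The numerators are the same 3 genes called above, and no share over all genes was computed for ratios. Wild type male 3 had the lowest of the 3 wild type ratios each time and was also the wild type male with the high blood sum of 7213 scaled FPKM. The part of blood content in the ratios was not tested.

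As mean log2 ratios, mutant minus wild type males stood at -0.84 for Tnni2 to Tnni1, -1.04 for Tnnt3 to Tnnt1 and -0.61 for Tnnc2 to Tnnc1. In females they stood at -0.27, -0.29 and -0.07 in the same order. The Tnni2 to Tnni1 ratio was 0.377, 0.348 and 0.307 in mutant females, against 0.461, 0.382 and 0.400 in wild type females. These female groups lay apart by a small margin. The Tnnt3 to Tnnt1 ratio overlapped, at 0.253 to 0.533 in mutant females and 0.415 to 0.503 in wild type females, and so did Tnnc2 to Tnnc1, at 0.624 to 0.686 in mutant females and 0.654 to 0.742 in wild type females. No test was run on ratios, which are given as a description.

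**Figure D3:**
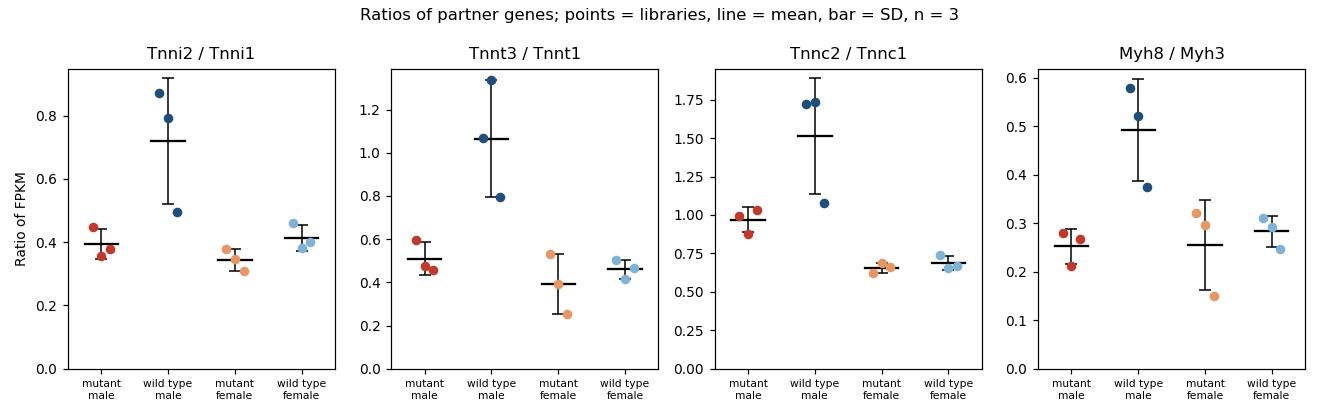
Ratio of FPKM between partner genes by group on the x axis, for the 3 fast to slow troponin pairs and for neonatal Myh8 to embryonic Myh3. Points are libraries, lines means and bars SD (n = 3). Wild type males average 0.720 for Tnni2 to Tnni1, above the 0.394 of mutant males and the 2 female groups.

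Among the thick filament genes, 4 of 7 tested fell in mutant males and 0 rose, against 11.6% of all genes lower and 8.64% higher. Myh8, the neonatal myosin heavy chain (ENSMUSG00000055775, chromosome 11, 67167950 to 67199460), was at 32.9, 38.7 and 28.9 scaled FPKM in mutant males, against 65.4, 75.7 and 75.2 in wild type males. Every mutant male was lower than every wild type male (-1.10, SE 0.21, limma adjusted p = 0.00613). Mybpc1, the slow-type myosin-binding protein C (ENSMUSG00000020061, chromosome 10, 88354141 to 88441014), was at 9.35, 11.7 and 6.42, against 19.4, 20.2 and 20.0 in wild type males (-1.12, SE 0.19, limma adjusted p = 0.00405). Of the 5 genes assigned to slow fibres it was the 1 that fell. The light chains of fast myosin fell too. Myl1 was at 58.1, 69.5 and 43.3, against 78.2, 112 and 136 in wild type males (-0.92, SE 0.22, limma adjusted p = 0.0143).

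Mylpf, the regulatory light chain of fast myosin, was at 166, 281 and 144 scaled FPKM in mutant males, against 264, 365 and 372 in wild type males. Mutant male 2 overlapped wild type male 1, and the call (-0.81, SE 0.23, limma adjusted p = 0.029) was lost without any 1 of mutant males 1 and 3 and wild type males 2 and 3, with no filter, with only the groups compared and after the correction for GC content and length. Myh3, the embryonic heavy chain and the most abundant of the 5, was at 118, 183 and 108, against 113, 145 and 200.1 in wild type males. It overlapped fully (-0.16, SE 0.25, limma adjusted p = 0.682). Myh7, the slow heavy chain that the heart also uses, was at 10.4, 17.1 and 10.7, against 8.31, 5.57 and 16.3 in wild type males (0.42, SE 0.33, limma adjusted p = 0.401). The adult fast gene Myh1 stayed at 0.294 to 1.10 scaled FPKM in all libraries. Myh1, Myh2, Myh3 and Myh8 lie close together on chromosome 11, with Myh4 between Myh1 and Myh8. They are near copies, so reads may have been split between them.

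The 5 listed heavy chains, which do not include Myh4, can also be read as shares of their summed FPKM. Myh3 made up 73.9% ± 2.15 in mutant males and 63.9% ± 4.17 in wild type males (SD, n = 3). Myh8 made up 20.3%, 16.2% and 19.4% in mutant males, against 34.7%, 33.2% and 25.6% in wild type males, with no overlap. Myh7 made up 6.91% ± 0.449 in mutant males and 4.13% ± 1.57 in wild type males. In females Myh8 made up 22.0%, 20.5% and 11.9% of the sum in mutants, against 21.9%, 20.8% and 18.1% in wild type. The ratio of Myh8 to Myh3 was 0.280, 0.212 and 0.267 in mutant males, against 0.579, 0.521 and 0.376 in wild type males. It overlapped in females, at 0.150 to 0.320 in mutants and 0.248 to 0.311 in wild type. The adult fast genes Myh1 and Myh2 took little in any library, at most 0.652% for Myh1 and 0.509% for Myh2.

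**Figure D4:**
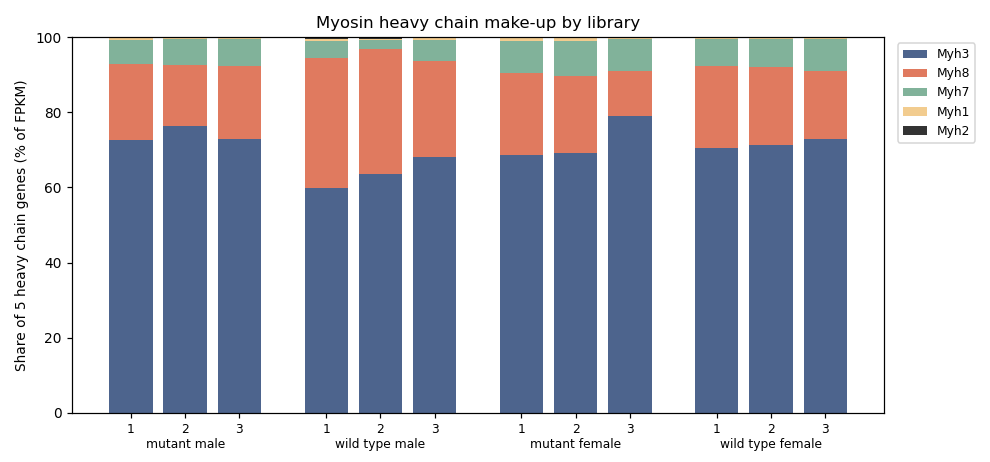
Share of each of 5 myosin heavy chain genes in their summed FPKM, as stacked bars for the 12 libraries grouped along the x axis. Neonatal Myh8 takes 25.6% to 34.7% in the 3 wild type males and 16.2% to 20.3% in the 3 mutant males.

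Of the thin filament genes, Acta1, the main actin of skeletal muscle (ENSMUSG00000031972, chromosome 8, 124618508 to 124621490), fell in mutant males. Its scaled FPKM were 165, 219 and 163 in mutant males, against 237, 351 and 348 in wild type males, without overlap (-0.76, SE 0.18, limma adjusted p = 0.0154). Actins are near copies of each other, so reads may have been shared. Its call ended without mutant male 1 or wild type male 2. Neb, the giant protein along the thin filament (ENSMUSG00000026950, chromosome 2, 52026659 to 52268486), was the 1 gene that fell in females. It was at 8.22, 8.44 and 8.35 in mutant females, against 14.7, 12.5 and 14.1 in wild type females, and the groups did not overlap (-0.69, SE 0.19, limma adjusted p = 0.0199). The call was lost without wild type female 1 or 3, with no filter, and with the replicate block and the GC and length correction together. In males Neb overlapped, at 11.8, 17 and 10.2 in mutants, against 15.8, 14.4 and 23.4 in wild type (-0.45, SE 0.19, limma adjusted p = 0.12).

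At the Z disc, which anchors the thin filaments, 1 of 5 tested genes fell in mutant males, where 11.6% of all genes were called lower. Myoz1, a calcineurin-binding protein of fast fibres (ENSMUSG00000068697, chromosome 14, 20699175 to 20706608), was at 1.12, 0.879 and 0.990 scaled FPKM in mutant males, against 4.06, 5.17 and 2.63 in wild type males (-1.54, SE 0.32, limma adjusted p = 0.00896). All 3 mutant males were low. The call ended with the replicate block and the GC and length correction together. It was at 0.533, 2.01 and 1.07 in mutant females, against 1.18, 0.439 and 0.874 in wild type females (0.30, SE 0.32, limma adjusted p = 0.51). The actin crosslinkers Actn2 and Actn3, the titin cap gene Tcap and the scaffold Ldb3 had log2 differences of -0.22, 0.30, -0.57 and -0.51 in males and did not pass (limma adjusted p = 0.0796 to 0.515). Actn2 was the most abundant of these, at 23.3 to 41.2 scaled FPKM in mutant males and 26.9 to 43.2 in wild type males. Ldb3 overlapped through a single pair, at 4.30, 5.78 and 5.15 in mutant males, against 5.64, 9.30 and 7.66 in wild type males. Tcap did not overlap, at 1.14 to 2.79 in mutant males and 3.07 to 3.67 in wild type males. The titin gene Ttn and the M band genes Myom1 and Myom2, which hold thick filaments in register, stood at -0.18, -0.44 and -0.45, also not passing (limma adjusted p = 0.126 to 0.687). Ttn was at 21.5, 28.2 and 22.8 scaled FPKM in mutant males, against 22.5, 18.9 and 47.4 in wild type males, where wild type male 3 stood apart.

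Among the calcium genes, 2 of 5 fell in mutant males, where 11.6% of all genes were called lower. Atp2a1, the pump that returns calcium to the store of fast fibres (ENSMUSG00000030730, chromosome 7, 126045030 to 126062280), was at 11.1, 16.6 and 11.9 scaled FPKM, against 19.7, 23.2 and 22.2 in wild type males. The groups lay apart (-0.71, SE 0.16, limma adjusted p = 0.0133), and the call ended without mutant male 1. Cav3, the caveolin of muscle membranes, was at 7.09, 9.89 and 5.60, against 12, 17.7 and 15 in wild type males (-0.96, SE 0.24, limma adjusted p = 0.0193). Its call was lost without mutant male 1, mutant male 3 or wild type male 2, and with no filter. The calcium release channel Ryr1 and its voltage sensor Cacna1s stood at 0.19 and -0.31, and the calcium-storing protein gene Casq1 at -0.48, none passing (limma adjusted p = 0.182 to 0.538). Ryr1 was at 2.65, 2.93 and 2.77 in mutant males, within the 1.74 to 3.74 of wild type males. Casq1 did not overlap, at 5.76 to 7.32 in mutant males and 7.97 to 11.2 in wild type males.

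Among these 34 genes the largest fall in males was that of Ckm, the cytosolic creatine kinase that restores ATP in working muscle (ENSMUSG00000030399, chromosome 7, 19144950 to 19156766). Its 3 mutant male libraries had 10.7, 9.76 and 9.33 scaled FPKM, against 42.9, 49.9 and 36.1 in wild type males. No library came near the other group (-2.05, SE 0.23, limma adjusted p = 0.00132). In females it was at 18.1, 25.1 and 15.3 in mutants, against 36.8, 26.7 and 18.4 in wild type, with overlap (-0.45, SE 0.23, limma adjusted p = 0.167). Eno3, the muscle enolase of glycolysis, was at 18.0, 23.9 and 17.3 in mutant males, against 30.5, 41.1 and 37.2 in wild type males (-0.87, SE 0.16, limma adjusted p = 0.00614). Pygm, which breaks down glycogen, stood at -0.21 (limma adjusted p = 0.589). Of the assembly factors, Klhl41, which steadies nebulin (ENSMUSG00000075307, chromosome 2, 69500464 to 69514574), was at 12.1, 17.2 and 9.80, against 19.2, 24.8 and 31.7 in wild type males (-0.94, SE 0.21, limma adjusted p = 0.011). The calls of Klhl41, Myl1 and Mylpf ended after the correction for GC content and length, at -0.71, -0.81 and -0.81 (limma adjusted p = 0.0877, 0.0548 and 0.0608). The methyltransferase gene Smyd1 and the myosin chaperone gene Unc45b, at -0.40 and -0.45, did not pass (limma adjusted p = 0.174 and 0.0816).

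**Figure D5:**
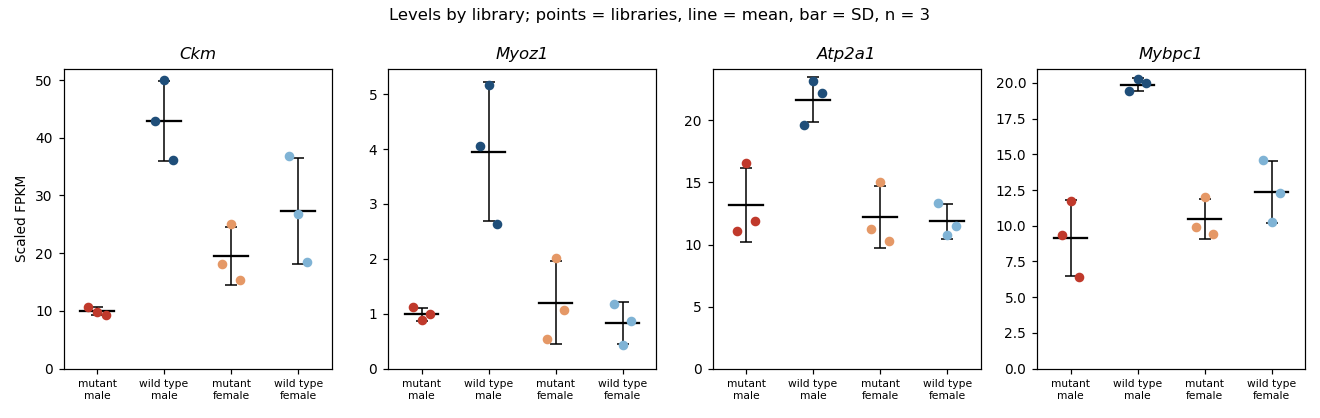
Scaled FPKM of Ckm, Myoz1, Atp2a1 and Mybpc1 by group on the x axis, with points for libraries, lines for means and bars for SD (n = 3). Ckm averages 9.92 in mutant males, below the 43.0 of wild type males and also below the 19.5 of mutant females.

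In females the 4 genes below wild type in all libraries were Neb, Myl1, Klhl41 and Smyd1. The scaled FPKM of Myl1 were 37.6, 43.8 and 39.7 in mutant females, against 71.3, 49.9 and 67.8 in wild type females (-0.62, SE 0.22, limma adjusted p = 0.0516). Klhl41 was at 10.7, 11.9 and 11.1, against 17, 12.9 and 16.7 in wild type females (-0.44, limma adjusted p = 0.132). Smyd1 was at 5.47 to 6.38 in mutant females and 6.61 to 8.67 in wild type females (-0.33, limma adjusted p = 0.22). Apart from Neb, these did not pass the test.

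By fibre type, 6 of 9 tested fast genes fell in mutant males at a median of -0.81, 1 of 5 slow genes at a median of -0.43, and 1 of the 2 developmental myosins. Among all genes 11.6% were called lower in males. The range was -1.25 to 0.30 for fast and -1.12 to 0.42 for slow genes, so the types overlap. Myoz1, at -1.54 in males, was not assigned to a fibre type here and is not in these counts. In females 0 of 9 fast and 0 of 5 slow genes passed, at medians of -0.10 and -0.14, against 28% of all genes called, 15.9% lower. The test of whether the mutant effect differed between the sexes called 0 of the 34 genes and 0 of all 13904, 0% of them (limma adjusted p under 0.05). At an unadjusted limma p under 0.05 it counted 11 of the 34 and 8.81% of all genes. Ckm had the smallest of these, with a difference between sexes of -1.60 (SE 0.33, limma adjusted p = 0.475). Myoz1 stood at -1.84 (SE 0.46, limma adjusted p = 0.538).

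Male and female levels were set side by side within each genotype. In mutants 0 of 34 genes were higher and 1 lower in males, against 7.49% of all genes called, 3.98% higher and 3.52% lower. Mutant males lay above mutant females in all libraries for 4 of 34 genes, and 13.1% of all genes did so. In wild type 7 of 34 were higher in males and 0 lower, against 3.18% of all genes called, 1.95% higher and 1.23% lower (limma adjusted p under 0.05). Wild type males lay above wild type females in all libraries for 20 of the 34, and 17.3% of all genes did so. This comparison uses the same wild type male libraries as the mutant comparison in males, so the 2 are not independent.

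The 7 genes higher in wild type males than wild type females were Tnni2, Tnnt3, Tnnc2, Myh8, Myoz1, Ldb3 and Atp2a1. Their log2 differences were 0.94, 1.19, 1.11, 1.18, 1.74, 0.95 and 0.85 in that order, with limma adjusted p of 0.00878 to 0.0253. For Tnnc2 the scaled FPKM were 86.2, 117 and 98.2 in wild type males, against 55.6, 37.9 and 45.8 in wild type females. In mutants the same 7 stood at 0.09, 0.30, 0.24, 0.48, -0.10, 0.44 and 0.10 and did not pass. The count of 7 became 0 without wild type male 2, 1 without wild type female 2 and 4 without wild type female 3. The 1 gene lower in mutant males than in mutant females was Ckm, at 9.33 to 10.7 against 15.3 to 25.1 scaled FPKM (-0.91, SE 0.23, limma adjusted p = 0.0382). That call ended without any 1 of the 3 mutant males, without mutant female 1 or 2, and without wild type male 1 or wild type female 2.

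Of 67 further genes of striated muscle, 51 were tested, and 19 of them fell and 0 rose in mutant males at a median of -0.46. Among all genes 11.6% were called lower and 8.64% higher in males. In females 4 of the 51 fell and 2 rose at a median of -0.06, against 15.9% of all genes lower and 12.1% higher. The largest called differences in males were -1.24 for Smpx, a small protein of the costamere, -1.21 for Cox8b, a muscle subunit of cytochrome oxidase, -1.11 for the adult fast myosin Myh4 and -1.01 for the Z disc gene Myot (limma adjusted p = 0.00128 to 0.0244). Myh4 passed the filter through wild type males alone, the group where it was high. It is counted among the 19, but its call carries no weight. Smpx was at 4.19, 5.38 and 4.98 scaled FPKM in mutant males, against 9.96, 13.4 and 13.1 in wild type males. Smpx and Myot were also called lower in mutant females, at -0.73 and -0.75 (limma adjusted p = 0.0247 and 0.0040). Cox8b and Myh4 stood at -0.36 and -0.18 in females and did not pass (limma adjusted p = 0.0569 and 0.672).

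Myogenic regulators, which start the muscle programme, were counted separately. Of 11 tested 2 fell in mutant males, Myf6 by 0.76 and the growth inhibitor Mstn by 1.24 (limma adjusted p = 0.0117 and 0.0046), and Mstn rose by 0.64 in mutant females (limma adjusted p = 0.0455). Among all genes 11.6% were called lower and 8.64% higher in males, and 15.9% lower and 12.1% higher in females. Myog, at a log2 difference of -0.23 in males, did not pass (limma adjusted p = 0.488). Of 7 tested genes of the neuromuscular junction 0 fell, and Lrp4, a receptor of the nerve signal agrin, rose by 0.55 in mutant males (limma adjusted p = 0.0438).

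Some markers of neighbouring tissue differed in mutant males. The 12 smooth muscle genes summed to 1403 to 1877 scaled FPKM in mutant males and 1209 to 1827 in wild type males, and 0 of 12 passed. The 13 myogenic regulators summed to 74.7 to 109 in mutant males and 81.3 to 130 in wild type males. The 8 cartilage genes summed to 41.9 to 55.2 in mutant males and 35.9 to 36.2 in wild type males. Of the 6 tested, 2 were called higher and 0 lower, with log2 differences from -0.34 to 0.99. The 8 pelvic neuron genes summed to 287 to 376 in mutant males and 381 to 415 in wild type males, with 0 of 8 passing. Of the 7 blood genes Hba-a2 was higher in mutant males by 4.44, and of the 6 urothelium genes Krt5 by 1.45 (limma adjusted p = 0.012 and 0.00909). In females 1 of the 6 urothelium genes was called higher too, and the largest difference of the 6 was 1.64. Among all genes 11.6% were called lower and 8.64% higher in males, and 12.1% higher in females. The part of these tissues and of depth in the muscle results was not tested.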

How the data were processed

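RNA sequencing values of urogenital sinus were analysed in 12 libraries of 4 groups of 3. The authors deposited 1 table of FPKM values, per the file headers, with 56495 genes and 0 columns of other samples. Per the labels, total RNA was depleted of ribosomal RNA and made into strand-specific single-end libraries. Per the submitters' processing notes, cutadapt 4.1, STAR 2.7.10a, Cufflinks 2.2.1, bedtools 2.30.0 and the builds mm39 and mm10 were used, with no role stated. The annotation and strand setting are not given in the sources used here. Only 2.74% of the genes shared with GENCODE M21 had the same end in GRCm38, so positions are given as mm39, with 1 added to the start. All 36 mitochondrial genes were at 0.

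Scaling used 1 divisor per library (0.748 to 1.13), the median of its ratios to the geometric mean of the 11897 genes that reached 1 FPKM everywhere. The 13904 genes that reached 1 FPKM in 3 or more libraries were tested as log2(scaled FPKM + 0.5), which understates changes of low genes. limma 3.58.1 in R 4.3.3 fitted 4 group means with an intensity trend, all tests being two-sided. A gene is called where its p, adjusted by Benjamini-Hochberg over all genes tested, was under 0.05. The script was tested on simulated data, drawn as independent normal values at the mean and spread of each gene. Such data check the code only and cannot show effects of depth, GC content, Rn7sk or blood. FPKM give no counts, so depth was read in relative terms only, from the steps of low values, and no counting interval was computed. Ratios and shares are of FPKM and carry no test.

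The genes and lists were chosen with earlier results of these data known. Every listed gene is described, and of other lists up to 4 called genes with the largest differences. Myog, Nppa and Nkx2-5 are named outside that rule as defining markers, after their values were seen. Pax3, Pax7, Myh6 and Myl2 are also named outside it. Some called genes of those lists, as for cartilage, are given by count only. GC content and length came from the longest GENCODE M21 transcript, with a value for all 34 tested genes. The settings varied were the pseudocount (0.1 and 1), the filter (none or 5 FPKM), the scaling, a replicate block, a GC and length correction, the trend, the groups fitted together and each library in turn.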

Additional observations from a re-analysis of the deposited data

How the results depend on the processing

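The 14 genes lower in mutant males became 10 to 19 when 1 library was left out. They became 11 after the GC and length correction and 14 with the FPKM as deposited or scaled to library sums. Leaving out the 3 libraries with high Rn7sk, chosen after seeing the data, leaves 1 mutant male, assumed to vary like the other groups. The calls then numbered 0 in males, 2 in females, 8 with the sexes combined and 0 for mutant males against mutant females, where all genes called numbered 62, 2749, 2740 and 46. The 1 call in females became 0 with no filter, 2 with the filter at 5 FPKM, 7 with scaling to library sums, 2 with only the groups compared, and 0 to 2 with 1 library left out. The 15 calls over both sexes became 11 to 20 with 1 library left out. Ckm, Tnni2, Tnnt3, Tnnc2, Myl1, Mybpc1 and Eno3 kept their call over both sexes in all 23 alternatives. The 7 calls between the sexes in wild type became 13 with only those groups and 0 to 9 with 1 library left out. Without the 3 libraries with high Rn7sk, Tnni2, Myh8, Myoz1 and Atp2a1 lost that call, at log2 differences of 0.99, 1.25, 1.71 and 0.91. Tnnt3, Tnnc2 and Ldb3 kept it. The 1 call in mutants became 0 with no filter, with the FPKM as deposited and with only those groups, 14 higher in males with scaling to library sums, and 0 to 3 with 1 library left out. That scaling called 6699 of all 13904 genes in this comparison, with their median at 0.32. In females it put the median of all genes at -0.22 and that of these 34 genes at -0.39. The causes were not tested. No called gene changed sign.

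With the replicate block the counts were 14, 1, 13, 0, 7 and 1 in males, females, both sexes, the difference between sexes, wild type and mutant. The block with the GC and length correction gave 10, 0 and 14 in the first 3. Same-numbered libraries of the 2 genotypes correlated at -0.0681 to 0.167 in their deviations, so the numbers are not taken as pairs. Over all genes, 2820 called in males became 1350 as deposited and 500 after the GC and length correction, 3895 in females became 1666 and 1078, and 5639 over both sexes became 3424 and 2383. Depth limits the genes near 1 FPKM, such as Myh1 and Myoz1.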
